A study of Mus musculus with 24 samples.

Results

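The BCL2 family of cell death regulators was examined outside its p53 target genes, as 10 genes of the 26267 in the deposited table: the guards Bcl2, Bcl2l1, Bcl2l2 and Mcl1, the effector Bak1, and the BH3-only genes Bcl2l11, Bid, Bad, Bik and Bmf. The genes were chosen by symbol, as family members other than the p53 targets, and all 10 symbols were found in the table. Polyadenylated RNA of sorted mouse LSK cells, the lineage-negative, Sca-1 and Kit positive bone marrow fraction that holds blood stem and early progenitor cells, was sequenced with the CATS RNA-seq Kit v2. The mice lacked Fancg and carried an Mdm4 transgene (FancgKO_Mdm4Tg), lacked Fancg alone (FancgKO), carried the transgene alone (Mdm4Tg) or had neither change (WT), and each genotype was given poly(I:C) or PBS. FANCG is a core protein of the Fanconi anemia DNA repair pathway, MDM4 restrains p53, and poly(I:C) is a synthetic double-stranded RNA that induces interferon. With poly(I:C) there were 2 FancgKO_Mdm4Tg, 3 FancgKO, 2 Mdm4Tg and 3 WT libraries, and with PBS there were 3 FancgKO_Mdm4Tg, 4 FancgKO, 3 Mdm4Tg and 4 WT libraries. The labels give no age, dose, timing, Fancg allele or transgene promoter and do not say that libraries came from separate animals, and every p-value here therefore speaks only of the spread among the libraries, which may be technical.

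BCL2 family proteins decide at the outer mitochondrial membrane whether a cell undergoes intrinsic apoptosis. Effectors such as BAK can form pores that release cytochrome c, guards bind and hold effectors and BH3-only proteins, and BH3-only proteins pass on stress and death signals. Blood stem and progenitor cells of mice need Mcl1 to survive, and much of the activity of this family is set after transcription, which RNA levels do not show.

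Depth lay between 807686 and 8229715 reads per library, with a median of 2583130. The Mdm4 normalized count was 5023 to 7105 in the 10 transgenic libraries and 750.9 to 1293 in the 14 others. Fancg was counted in every library, at 26.1 to 78.4, so its count does not check the knockout label. The LSK label was checked against its defining markers: Kit was at 1483 to 2075 with poly(I:C) and 1710 to 2414 with PBS, while Ly6a, the gene of Sca-1, was low at 14.2 to 41.0 with poly(I:C) and 11.7 to 45.9 with PBS. Titles end in d_2 for replicate numbers 2, 4 and 8 and in d for numbers 6 and 7, with no stated meaning, and libraries stood apart by this suffix: 45.3% of 12628 tested genes differed between d_2 and d at an adjusted p under 0.05. In bulk RNA, fewer cells of a type and less RNA per cell cannot be told apart.

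RefSeq promoter windows of GRCm38.p6, the 250 bases before a transcription start, were matched for 9 of the 10 members, with 15 windows in all. The motifs searched were these, on both strands: an interferon response element (GAAANNGAAA), a STAT-type GAS element (TTCNNNGAA) and a GC box (GGGCGGG). They occurred in 2.977%, 7.02% and 23.4% of all 32851 windows of the same length. No member window held the first or second of these letter strings, and the GC box was present in windows of Bcl2, Bcl2l2, Mcl1, Bcl2l11 and Bid. The windows of Bid, which rose with poly(I:C), and of Mcl1 and Bcl2, the members with the highest levels, which moved in opposite directions by title suffix, are printed 5′ to 3′ with GC boxes in capitals. All lie outside annotated exons of the same gene except the last 29 bases of the Bid window.
Bid, chr6:120916825-120917074, minus strand: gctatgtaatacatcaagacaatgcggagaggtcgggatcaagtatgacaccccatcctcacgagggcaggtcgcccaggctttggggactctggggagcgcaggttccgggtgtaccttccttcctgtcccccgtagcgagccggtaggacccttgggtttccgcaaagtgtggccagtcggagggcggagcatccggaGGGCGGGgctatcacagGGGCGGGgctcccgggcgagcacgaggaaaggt
Mcl1, chr3:95658471-95658720, plus strand: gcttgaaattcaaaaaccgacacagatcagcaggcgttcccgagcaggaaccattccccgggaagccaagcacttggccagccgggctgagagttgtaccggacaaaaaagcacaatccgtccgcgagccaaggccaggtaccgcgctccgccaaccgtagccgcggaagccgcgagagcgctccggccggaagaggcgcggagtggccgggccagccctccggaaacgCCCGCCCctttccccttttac
Bcl2, chr1:106714291-106714540, minus strand: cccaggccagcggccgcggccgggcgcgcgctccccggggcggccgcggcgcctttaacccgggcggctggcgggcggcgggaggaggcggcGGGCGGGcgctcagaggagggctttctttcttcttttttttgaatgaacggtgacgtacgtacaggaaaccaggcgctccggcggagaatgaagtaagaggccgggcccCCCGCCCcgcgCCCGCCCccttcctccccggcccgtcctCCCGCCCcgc
The GC boxes of Bid lie 50 to 44 and 33 to 27 bases before the RefSeq start, and that of Mcl1 lies 21 to 15 bases before it. The RefSeq starts used for Mcl1 and Bcl2 lie upstream of both genes as GENCODE M21 annotates them, so positions hold for the RefSeq start only. GC content was 63.6% in the Bid window, 64.4% in the Mcl1 window and 74.8% in the Bcl2 window, against a median of 52.4% over all windows. The Bak1 window held none of the motifs at 58.4% GC, and it is not printed because annotated exons of other Bak1 transcripts cover all 250 bases.

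Levels of different genes were compared as normalized counts per kilobase of annotated exon. Mcl1 was the most abundant member, with a median of 208 per kilobase over 24 libraries, and it stood above Bcl2 in 24 of 24. Bcl2, the founding guard, followed with a median level of 77.7 per kilobase and stood above Bak1 in 23 of 24 libraries. The order of Mcl1 and Bcl2 rests on their exon lengths over all annotated transcripts, 3418 and 9157 bases. Before division by length their median normalized counts were 710.8 and 711.2, and the ratio of Mcl1 to Bcl2 ran from 0.54 to 2.16 across libraries. Bak1 and Bid had median levels of 34.3 and 32.6 per kilobase and did not separate, since Bak1 was above Bid in only 9 of 24 libraries. The gene of the BH3-only protein BIM, Bcl2l11, had a median level of 11.3 per kilobase, Bcl2l2 (the guard BCL-W) 9.45, Bcl2l1 (the guard BCL-XL) 7.72 and Bad 7.18. Bcl2l1 and Bad did not separate either, with Bcl2l1 higher in 13 of 24 libraries. Bmf, a BH3-only gene whose product binds dynein light chains, was near the limit of detection at a median level of 0.638 per kilobase. Bik, a BH3-only gene whose product sits mainly at the endoplasmic reticulum, had 5 reads in all, from 4 of 24 libraries, and could not be compared at this depth. The summed level of the 4 guards per kilobase was 2.28 to 5.13 times that of the 6 other members in libraries with poly(I:C), and 2.99 to 5.68 times with PBS.

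**Figure D1:**
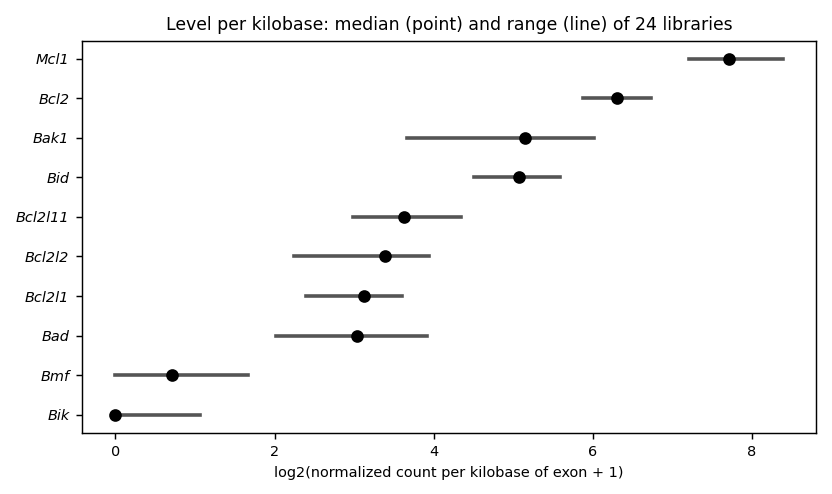
Level of each of the 10 genes as log2(normalized count per kilobase of exon + 1), with the median (point) and the range (line) of 24 libraries. Mcl1 and Bcl2 lead, Bak1 overlaps Bid, and Bmf and Bik lie at or near 0.

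Poly(I:C) was compared with PBS first as the mean of the 4 within-genotype differences in log2(normalized count + 1). Of the 10 members, 9 passed the filter, under which 2 or more libraries had to reach a normalized count of 10, and Bik did not. Bak1 and Bid rose and no member fell, so 2 of 9 (22.2%) passed the limma adjusted p of 0.05, against 23.6% of all 12628 genes tested. Over all genes 11.9% were called higher and 11.6% lower. The share of members called was thus near that of all genes, and the median log2 difference was -0.03 for the members and 0.01 for all genes. The 2 called were the effector and 1 BH3-only gene, no guard was called, and a difference between these roles was not tested.

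Bak1 encodes the pore-forming effector that sits in the outer mitochondrial membrane. In FancgKO_Mdm4Tg cells its normalized count was 88.7 and 85.8 with poly(I:C), against 53.03, 67.3 and 42.5 with PBS. In FancgKO cells it was 153, 82.5 and 87.6 with poly(I:C), against 28.2, 95.0, 111 and 84.9 with PBS. The groups did not overlap in FancgKO_Mdm4Tg cells and overlapped widely in FancgKO cells, where the lowest and the highest PBS libraries of the whole study both lay. Mdm4Tg cells had 86.7 and 78.5 with poly(I:C), against 41.1, 57.0 and 44.6 with PBS, again with no overlap. WT cells had 132, 82.8 and 95.7 with poly(I:C), against 40.1, 103, 68.6 and 46.1 with PBS, where replicate 6 of the PBS group lay above 2 poly(I:C) libraries. Averaged over genotypes, the log2 difference of Bak1 was 0.69 ± 0.20 (SE, 10 poly(I:C) and 14 PBS libraries), with a limma adjusted p of 0.0169. These values rest on 18 to 306 reads per library. The gene lies at chr17:27019810-27029009 on the minus strand of GRCm38.

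Bid, at chr6:120891930-120916853 on the minus strand of GRCm38, encodes a BH3-only protein that caspase-8 cleaves, which links death receptors to mitochondria. FancgKO_Mdm4Tg cells had normalized counts of 116.2 and 164 with poly(I:C), against 106, 115.6 and 78.2 with PBS. FancgKO cells had 149, 77.1 and 167 with poly(I:C), against 107, 121, 136 and 91.5 with PBS. In FancgKO cells the poly(I:C) libraries thus held both the highest and the lowest values, and replicate 7 with poly(I:C) was the lowest Bid library of all 24. In Mdm4Tg cells the counts were 132 and 130.3 with poly(I:C), against 96.4, 96.3 and 86.2 with PBS. In WT cells they were 134, 123 and 160.2 with poly(I:C), against 99.2, 119, 100.3 and 88.2 with PBS. Bid groups did not overlap in FancgKO_Mdm4Tg, Mdm4Tg or WT cells, although the gap in FancgKO_Mdm4Tg cells was under 1 normalized count. How many of all genes had groups without overlap was not counted, here or for Bak1. The averaged log2 difference of Bid was 0.39 ± 0.12 (SE), with a limma adjusted p of 0.0231, from 28 to 512 reads per library. Without FancgKO_Mdm4Tg replicate 8 or FancgKO replicate 6 of the poly(I:C) groups, the Bid difference was 0.33 and 0.36 with limma adjusted p of 0.0893 and 0.0503.

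**Figure D2:**
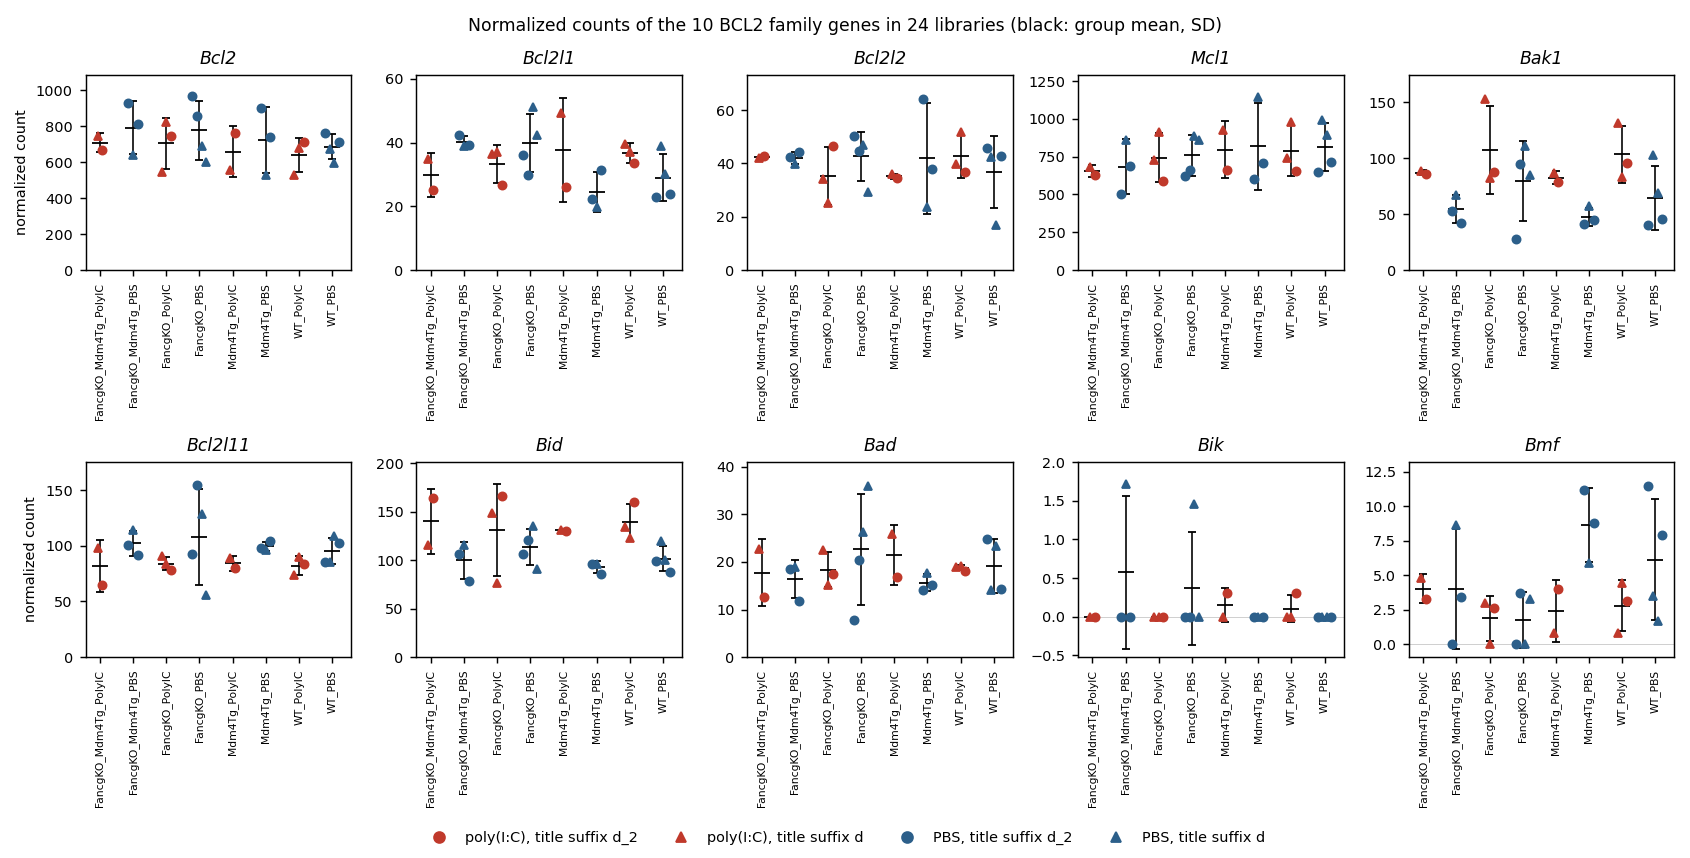
Normalized counts of the 10 genes in each of the 24 libraries, by genotype with poly(I:C) (red) left of PBS (blue), circles for title suffix d_2 and triangles for d, with the group mean and SD in black. Bak1 and Bid lie higher with poly(I:C) in most genotypes, and for Mcl1 and Bcl2 the suffixes separate more than the treatments.

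Bak1 and Bid were also read within each title suffix. Among the 12 d_2 libraries the averaged log2 difference was 0.90 for Bak1 and 0.67 for Bid. All 4 poly(I:C) libraries there carry number 8, with 1 per genotype, so the spread in that fit comes from PBS libraries only. Among the 12 d libraries the difference was 0.38 for Bak1 and 0.16 for Bid, and some groups there hold only 1 library too. Only sizes are therefore given for both fits, and neither is read as a call. The difference between suffixes in the response was not tested. With the suffix as a covariate over all libraries, the log2 differences were 0.61 and 0.40, both called. Libraries of one genotype that share a replicate number could be set side by side in 9 pairs, and Bak1 was higher with poly(I:C) in 8 of 9, as was Bid. The exception was FancgKO replicate 7 for both genes, with Bak1 at 82.5 with poly(I:C) and 84.9 with PBS, and Bid at 77.1 with poly(I:C) and 91.5 with PBS. The 3 pairs numbered 8 had the widest gaps for both genes, up to a log2 difference of 1.04 for Bak1 in WT cells and 1.06 for Bid in FancgKO_Mdm4Tg cells. How many of all genes went the same way in 8 of 9 pairs was not counted, here or for Bcl2l11 below.

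**Figure D3:**
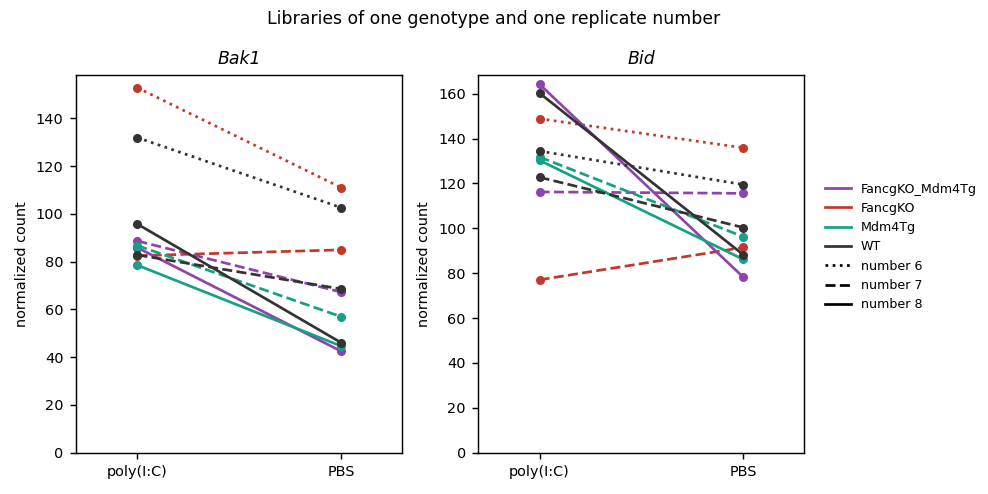
Normalized counts of Bak1 and Bid with poly(I:C) (left points) and PBS (right points), with lines joining the 9 pairs of libraries of one genotype (colour) and replicate number (line style). Lines fall towards PBS in 8 of 9 pairs for each gene and climb for FancgKO replicate 7.

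Exons of both genes overlap those of a neighbour on the other strand, and the strand setting of the counting is not stated, so reads from the shared bases cannot be told apart. Bak1 shares 614 of 2407 exon bases with Ggnbp1, which had a median normalized count of 7.59. Bid shares 628 of 3550 exon bases with Bcl2l13, a mitochondrial BCL2-like gene with a median normalized count of 212. Bcl2l13 was itself higher, at 222.8 to 286 with poly(I:C) and 158 to 231 with PBS, with a log2 difference of 0.42 ± 0.07 (SE) and a limma adjusted p of 8.81e-04. Levels of other members carry the same limit. Bad shares 524 of 2558 exon bases with Gpr137 on the other strand, which had a median normalized count of 20.7. Bcl2 shares 558 of 9157 exon bases with the antisense gene D630008O14Rik, and Bcl2l2 shares 594 of 4462 with Gm20521 on the same strand.

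Cell type markers moved in the same comparison. All 10 granulocyte-monocyte progenitor markers, among them Mpo and Elane, were called higher, with a summed normalized count of 6043 to 23514 with poly(I:C) and 1603 to 14327 with PBS. Of 10 stem and LSK markers 8 were called lower, with sums of 3785 to 6328 with poly(I:C) and 5147 to 8866 with PBS. Among lymphoid progenitor markers 4 of 7 were called lower, while 5 of 6 tested erythroid and 4 of 7 mast cell and basophil markers were called higher, and of 6 megakaryocyte markers 1 was called higher and 1 lower. Mature neutrophil markers summed to 0.83 to 32.2 with poly(I:C) and 0 to 10.0 with PBS, with Camp, Ltf and Retnlg at 2.5 or less in every library, and mature lymphocyte markers summed to 210 to 391.5 with poly(I:C) and 128 to 270.2 with PBS, with Cd3e, Cd3g and Cd8a at 2.65 or less. In the test 1 of 1 neutrophil marker and 1 of 2 lymphocyte markers past the filter were called higher. The part of these markers in the Bak1 and Bid results was not tested.

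The guards did not pass the test in the averaged poly(I:C) comparison. Mcl1, a short-lived guard, had a lowest, median and highest normalized count of 590, 703 and 977 with poly(I:C) and of 501, 711 and 1143 with PBS. Its log2 difference was -0.03 ± 0.13 (SE), with a limma adjusted p of 0.891. When replicate number was added as a block, Mcl1 had a log2 difference of -0.18, with a limma adjusted p of 0.0419. Bcl2 had 530.2, 693 and 823 with poly(I:C) and 530.4, 727 and 965 with PBS, and its ranges overlapped almost throughout. The log2 difference was -0.13 ± 0.11 for Bcl2 (limma adjusted p of 0.398), 0.06 ± 0.14 for Bcl2l1 (0.773) and -0.03 ± 0.18 for Bcl2l2 (0.921). Bcl2l1 had 25.0 to 49.2 with poly(I:C) and 19.6 to 51.1 with PBS, and Bcl2l2 had 25.0 to 51.8 with poly(I:C) and 16.7 to 64.3 with PBS.

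Bcl2l11 was the member closest to a call among those that did not pass. It had a lowest, median and highest normalized count of 65.1, 83.4 and 98.2 with poly(I:C) and of 55.5, 99.3 and 155 with PBS. Its log2 difference was -0.26 ± 0.13 (SE), with an unadjusted p of 0.0549 and a limma adjusted p of 0.142, and it was lower with poly(I:C) in 8 of 9 same-number pairs. The 2 PBS libraries farthest apart were both FancgKO, replicate 7 at 55.5, the shallowest library of the study, and replicate 4 at 155. It passed with DESeq2 (-0.31, adjusted p of 0.0303) and without FancgKO replicate 7 of the PBS group (-0.33, limma adjusted p of 0.0192). It also passed among libraries of at least 1000000 reads (-0.33, limma adjusted p of 0.0255), a fit chosen after the data were seen. No other fit over all libraries passed, among them the replicate block (-0.21, limma adjusted p of 0.196) and edgeR (-0.29, adjusted p of 0.07). Leaving out any other library gave no pass either. The log2 difference was -0.42 among d_2 libraries and -0.13 among d libraries.

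Bad, a BH3-only gene whose product is held by 14-3-3 proteins when phosphorylated, had 12.7 to 25.9 with poly(I:C) and 7.83 to 35.9 with PBS, with a log2 difference of 0.09 ± 0.21 (SE) and a limma adjusted p of 0.773. Bmf had 0 to 4.79 with poly(I:C) and 0 to 11.4 with PBS, from at most 16 reads in a library. It passed the filter only through replicate 2 of WT and of Mdm4Tg with PBS, and its log2 difference was -0.43 ± 0.44 (SE) with a limma adjusted p of 0.497. The 2 Bik reads with poly(I:C) came from Mdm4Tg and WT replicate 8, and the 3 with PBS from FancgKO_Mdm4Tg replicate 7 and FancgKO replicate 6.

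Within single genotypes limma called 0 of 9 members for poly(I:C) against PBS, and 0 had an unadjusted p under 0.05. Of all genes 0.0158% were called in WT cells, and 0.0% in each of FancgKO_Mdm4Tg, FancgKO and Mdm4Tg cells, where 1082, 914 and 1605 genes had an unadjusted p under 0.05, with 0, 0 and 13 calls by edgeR and 5, 0 and 45 by DESeq2. These backgrounds moved with the fit: limma with the replicate number as block called 869 genes in WT cells, against 2 without it. With the block it also called genes in FancgKO_Mdm4Tg and Mdm4Tg cells. Among d_2 libraries each genotype had only 1 poly(I:C) library, so no count of calls within a genotype is given for them. Bak1 and Bid values were read out although they did not pass, a choice made after they were seen. The log2 difference of Bak1 was 0.70 ± 0.43 in FancgKO_Mdm4Tg, 0.53 ± 0.36 in FancgKO, 0.80 ± 0.43 in Mdm4Tg and 0.75 ± 0.36 in WT cells (SE). For Bid it was 0.48 ± 0.26 in FancgKO_Mdm4Tg, 0.14 ± 0.22 in FancgKO, 0.49 ± 0.26 in Mdm4Tg and 0.45 ± 0.22 in WT cells (SE). Over 8 other fits the value in WT cells ranged from 0.38 to 0.76 for Bak1 and from 0.43 to 0.53 for Bid. The Xist count in WT cells was 5943, 20207 and 0.31 with poly(I:C) and 0 to 24.8 with PBS. Treatment and Xist thus cannot be fully told apart in WT cells. The responses were not shown to differ between genotypes, with an F test p of 0.965 for Bak1 and 0.655 for Bid (limma adjusted p of 1). The Bid response in FancgKO minus that in WT cells was -0.30 ± 0.31 (SE). Leaving out 1 library at a time, the value in FancgKO cells ranged from 0.10 to 0.75 for Bak1 and from -0.07 to 0.48 for Bid, and the 0.10 for Bak1 was without replicate 2 of the PBS group. The F test called 0 members and 0.0% of all genes, with 47 genes at an unadjusted p under 0.05 and 0 called by edgeR or DESeq2, and its lowest member p was 0.0732, for Bcl2l1 (limma adjusted p of 1). Bcl2l1 had log2 differences of -0.43 ± 0.31 in FancgKO_Mdm4Tg, -0.24 ± 0.26 in FancgKO, 0.56 ± 0.31 in Mdm4Tg and 0.36 ± 0.26 in WT cells (SE). In Mdm4Tg cells its same-numbered pairs went opposite ways, at 1.28 for replicate 7 and -0.26 for replicate 8.

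Fancg loss was assessed as the mean of FancgKO minus WT and FancgKO_Mdm4Tg minus Mdm4Tg under both treatments. Limma called 0 of 9 members, with 0 at an unadjusted p under 0.05 and 0 called by edgeR or DESeq2, against 0.0158% of all genes. Among the guards the log2 differences were 0.14 ± 0.11 for Bcl2, 0.19 ± 0.14 for Bcl2l1, 0.09 ± 0.18 for Bcl2l2 and -0.17 ± 0.13 for Mcl1 (SE, limma adjusted p of 1 for each). Bak1 had 0.13 ± 0.20, and among BH3-only genes Bcl2l11 had 0.02 ± 0.13, Bid 0.04 ± 0.12, Bad -0.05 ± 0.21 and Bmf -0.68 ± 0.44 (SE, limma adjusted p of 1 for each). No member differed beyond the spread between libraries. In FancgKO against WT cells with PBS the lowest p-values were those of Bmf, at a log2 difference of -1.52 ± 0.74 and p of 0.0533, and of Bcl2l1, at 0.45 ± 0.24 and p of 0.0692 (SE, limma adjusted p of 0.999). The Bmf counts behind this were 0, 3.73, 0 and 3.27 in FancgKO cells and 11.4, 3.54, 1.67 and 7.93 in WT cells, at most 16 reads each. Since Bmf passed the filter only through PBS libraries with intact Fancg, this difference is given as a description and its p is no support for one. Bcl2l1 had 36.0, 29.8, 51.1 and 42.5 in FancgKO cells and 22.9, 38.9, 30.1 and 23.8 in WT cells, with overlapping ranges. Limma called 0 members and 0.0% of all genes in FancgKO against WT cells, both with PBS and with poly(I:C), with 497 and 46 genes at an unadjusted p under 0.05 and 0 called by edgeR or DESeq2. With the replicate block limma called 4 genes with PBS and 0 with poly(I:C).

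The Mdm4 transgene was assessed as the mean of FancgKO_Mdm4Tg minus FancgKO and Mdm4Tg minus WT under both treatments. Limma called 0 of 9 members, with 0 at an unadjusted p under 0.05 and 0 called by edgeR or DESeq2, against 0.00792% of all genes. Bak1 was farthest from 0 in units of its error, with a log2 difference of -0.32 ± 0.20 (SE) and an unadjusted p of 0.121 (limma adjusted p of 0.953). With the replicate block it was -0.015 and with Xist as a covariate -0.038. The Xist count was 362.5 to 20207 in 6 libraries, all without the transgene and with suffix d, and 0 to 24.8 in the 18 others. With PBS the Bak1 counts were 53.03, 67.3 and 42.5 in FancgKO_Mdm4Tg cells against 28.2, 95.0, 111 and 84.9 in FancgKO cells. The lowest Bak1 value of all lay in the FancgKO group. The guards had log2 differences of 0.04 ± 0.11 for Bcl2, -0.09 ± 0.14 for Bcl2l1, 0.05 ± 0.18 for Bcl2l2 and -0.09 ± 0.13 for Mcl1 (SE). Among BH3-only genes they were 0.01 ± 0.13 for Bcl2l11, -0.06 ± 0.12 for Bid, -0.11 ± 0.21 for Bad and 0.55 ± 0.44 for Bmf (SE). Limma adjusted p lay between 0.953 and 0.996 for these genes. No member was called in FancgKO_Mdm4Tg against FancgKO cells with PBS or with poly(I:C), or in Mdm4Tg against WT cells with PBS, each with 0.00792% of all genes called.

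**Figure D4:**
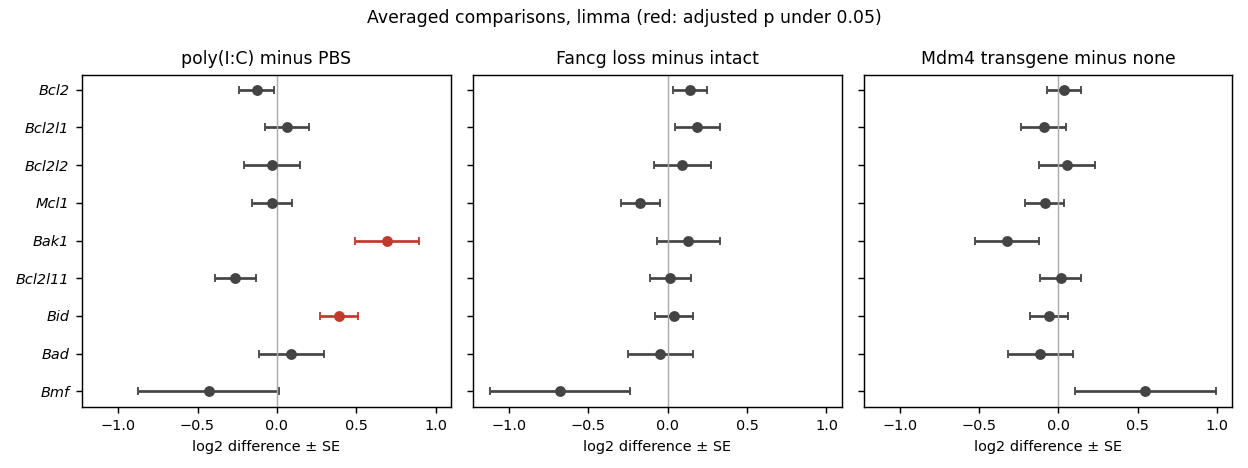
Log2 differences with SE of the 9 tested genes for poly(I:C) minus PBS, Fancg loss minus intact Fancg, and Mdm4 transgene minus none, each averaged over the other factors. In the first panel Bak1 and Bid (red) passed the adjusted p of 0.05, and no gene passed in the other panels.

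The title suffix separated several members. In the fit with the suffix as a covariate, 4 of 9 members were called between d_2 and d libraries, near the 45.3% of all genes. Mcl1 was lower in d_2 libraries, with 501 to 717 in 12 d_2 libraries and 682 to 1143 in 12 d libraries, and the suffixes did not overlap within PBS (501 to 717 in d_2, 862 to 1143 in d) or within poly(I:C) (590 to 662 in d_2, 682 to 977 in d). Its log2 difference was -0.47 ± 0.07 (SE), with a limma adjusted p of 7.75e-06. Bcl2 went the other way, with PBS libraries at 713 to 965 in d_2 and 530.4 to 687 in d and a log2 difference of 0.33 ± 0.08 (SE, limma adjusted p of 0.00154). The share of all genes without overlap between the suffixes was not counted, so the lack of overlap for Mcl1 and Bcl2 is a description. Bak1 was lower in d_2 by 0.50 ± 0.16 on the log2 scale and Bcl2l1 by 0.32 ± 0.12 (SE), with limma adjusted p of 0.0155 and 0.037. Bid did not pass, at 0.07 ± 0.11 (SE, limma adjusted p of 0.646). The granulocyte-monocyte progenitor marker sum was 1603 to 14477 in d_2 libraries and 3998 to 23514 in d libraries, and the lymphoid progenitor sum had medians of 2406 in d_2 and 1145 in d libraries. Marker sums by suffix pool the treatments, with poly(I:C) in 4 of 12 d_2 and 6 of 12 d libraries. By treatment the lymphoid median was 1049 with poly(I:C) and 2279 with PBS, and the granulocyte-monocyte median was 12283 and 3005. The suffix values of these 2 sums thus mix suffix with treatment. The megakaryocyte marker sum did not overlap, at 218 to 367 in d_2 and 566 to 828 in d libraries. The part of these markers in the differences was not tested.

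**Figure D5:**
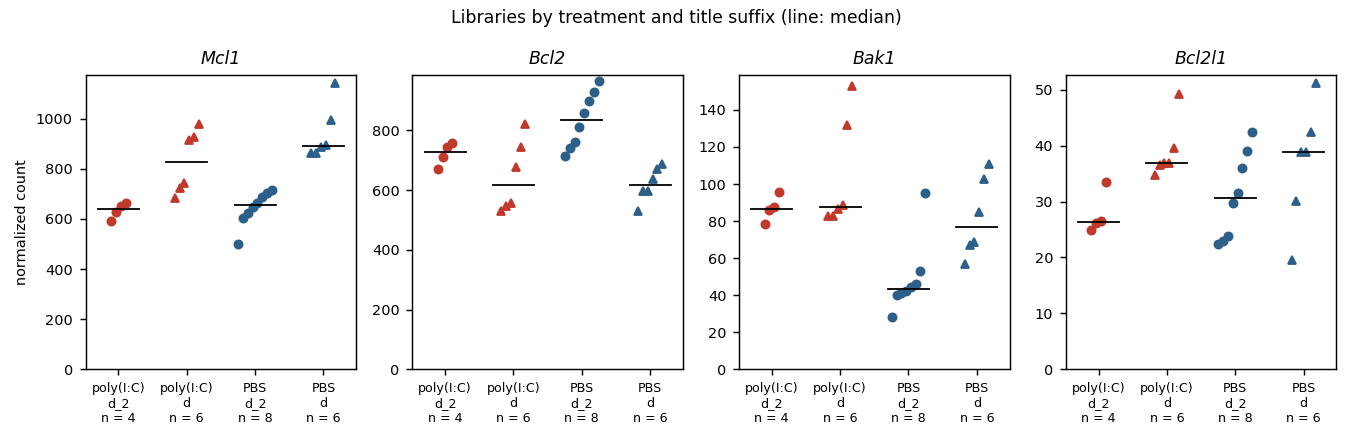
Normalized counts of Mcl1, Bcl2, Bak1 and Bcl2l1 by treatment and title suffix, with medians as lines. Within each treatment Mcl1 is lower and, with PBS, Bcl2 is higher in d_2 than in d libraries with no overlap. The share of all genes without such overlap was not counted.

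Across all 24 libraries, members varied together in part along these lines. Pearson r of log2(normalized count + 1) was 0.63 for Bak1 with Bid, -0.64 for Bcl2 with Mcl1, -0.57 for Bak1 with Bcl2 and -0.63 for Bcl2l1 with Bmf, given as a description over libraries that share treatments, suffixes and depth. Among 7287 genes with a mean count of at least 50, those most like each member were Bsg (0.95) and Ddb1 (0.94) for Bak1, Ifi209 (0.92) and Ap3s1 (0.90) for Bid, Ing2 (0.92) and Btg1 (0.92) for Mcl1, Fam92a (0.87) and Tmem161b (0.84) for Bcl2, and Mtrf1l (0.77) and Ndst1 (0.71) for Bcl2l11, each by r.

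Other genes of the pathway were read in the averaged poly(I:C) comparison. Of 15 further BCL2 family genes 12 were in the table and 7 were tested, and 2 were called higher: Bcl2l13, given above, and Pmaip1, which encodes the BH3-only protein NOXA, at 8.31 to 38.0 with poly(I:C) and 1.91 to 20.5 with PBS (log2 difference 0.93 ± 0.27 SE, limma adjusted p of 0.0165). Bax, the other main effector, had 16.7 to 46.4 with poly(I:C) and 12.7 to 32.7 with PBS and did not pass, at 0.28 ± 0.16 (SE, limma adjusted p of 0.209). Of 25 apoptosome, caspase and inhibitor genes, 8 were called higher and 1 lower (36.0%, against 23.6% of all genes), with a median log2 difference of 0.14. Apaf1, the scaffold of the apoptosome, had 289 to 431 with poly(I:C) and 242 to 338 with PBS, at 0.37 ± 0.08 (SE, limma adjusted p of 0.00359). Birc2, an inhibitor of apoptosis gene, was the gene called lower, with 186 to 254 with poly(I:C) and 226 to 356 with PBS, at -0.37 ± 0.08 (SE, limma adjusted p of 0.00309). Others called higher included the mitochondrial channel genes Vdac1 (0.31) and Vdac2 (0.30), the protease gene Htra2 (0.49), Aifm1 (0.25) and Birc5 (0.30), by log2 difference. Of 21 genes for known regulators of the members, 2 were called higher and 2 lower (19.0%), and they are named here after their values were seen. Myc (0.34) and Dynll1 (0.49), a dynein light chain gene, were higher, while Pim1 (-0.49), a survival kinase gene, and Foxo3 (-0.22), a transcription factor gene, were lower, by log2 difference. Over Fancg loss and over the Mdm4 transgene, limma called 0 genes of these 3 lists, with 4 and 3 at an unadjusted p under 0.05.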

How the data were processed

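The deposited file holds normalized counts per gene and library, a signal made by the authors, with STAR and mm10 listed per the submitters' processing notes; the counter, strand setting and handling of molecular identifiers are not given in the sources used here. Columns were whole multiples of 1 read's worth for 100% of values (relative tolerance 1e-06), so reads were recovered. Of 26267 genes, 16217 were named by the file, 10006 from the reference and 44 not at all. Exons are from GENCODE M21.

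Genes with at least 10 in at least 2 libraries (12628) were fitted as log2(normalized count + 1) by limma 3.58.1 under R 4.3.3, with a trend and 1 mean for each of 8 groups, and adjusted with Benjamini-Hochberg over all genes at 0.05. A fold on this scale understates changes of low genes. Recovered reads were tested with edgeR 4.0.16, which called 3622 genes for averaged poly(I:C), and DESeq2 1.42.0, which called 3697, against 2974 with limma. Fits were tested on simulated data. Other settings were a pseudocount of 5, no filter, TMM, the replicate number as a block, the suffix or Xist as a covariate, each suffix alone, and leaving out each library. Members and lists were chosen with earlier results of these data known. All 10 members are described, called genes of the other BCL2 family and of the apoptosome list were named (at most 8 per list, by p; 1 is not reported here), markers and regulators were named as examples, and likeness gives the 2 highest r.

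Same-numbered libraries deviated together in the comparisons with 3 shared numbers: FancgKO against WT with PBS (r 0.218 to 0.528) and with poly(I:C) (0.392 to 0.617), poly(I:C) against PBS in WT (0.231 to 0.448), and Mdm4Tg against WT with PBS (0.293 to 0.378). Each number carries only d_2 or only d, so this r cannot tell pairing by number from the suffix. For poly(I:C) against PBS with 2 shared numbers, r was 0.0528 to 0.45 in FancgKO, 0.14 to 0.411 in FancgKO_Mdm4Tg and 0.356 to 0.427 in Mdm4Tg cells. Values are from the fit without the block, and the blocked value is given where it changed a call or a count. A number is not one animal: WT replicate 7 had an Xist count of 20207 with poly(I:C) and 3.34 with PBS. Only FancgKO with PBS holds number 4, which the block then fits exactly.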

Additional observations from a re-analysis of the deposited data

Results flagged for a closer look

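Of 19 groups of 4 libraries with varying values of a member, 2 held a library far from the others, where chance gives about 1 in 20. Bcl2l2 was at 16.72 in WT replicate 7 with PBS, from 10 reads, against 42.47 to 45.77 in the other 3 WT libraries with PBS. Bik was at 1.46 in FancgKO replicate 6 with PBS, from 1 read, against 0 in the other 3 FancgKO libraries with PBS. With a read in only 1 of 4 libraries the rule always flags, so the chance rate does not apply to Bik.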

How the results depend on the processing

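For poly(I:C) against PBS averaged over genotypes, the count of members called was 2 as reported and 1 to 3 when a library was left out. Fits on d or d_2 libraries alone hold groups of 1 library, and no count is given for them. The other alternatives gave 2 or 3, the third being Mcl1 with the replicate block and Bcl2l11 with DESeq2 or at least 1000000 reads. The share of all genes called in the block, covariate, depth and leave-out fits is not given beside these counts, so no excess of members is read from them. In the other comparisons it was 0 with every alternative counted for them, the replicate block included; fits on 1 suffix or on depth were not counted there. Directions turned only for log2 differences that had not been called. For poly(I:C) these were Bcl2 among d libraries (0.071), Bcl2l1 with the block (-0.003), Xist (-0.001) or d_2 alone (-0.12), and Bcl2l2 with the block (0.13), suffix (0.03), Xist (0.007) or d alone (0.27). For Fancg loss they were Bcl2l11 with the block (-0.04) and Bad with edgeR (0.016) or DESeq2 (0.013). For the transgene they were Bcl2 with the block (-0.028), suffix (-0.018) or Xist (-0.142), Bcl2l2 with the suffix (-0.006) or Xist (-0.056), Bcl2l11 with edgeR (-0.022), DESeq2 (-0.021) or Xist (-0.071), Bid with the block (0.029), and, with Xist, Bcl2l1 (0.094), Mcl1 (0.127) and Bad (0.126). Leaving out 1 library turned the sign within these ranges: for poly(I:C), Bcl2l1 -0.048 to 0.173, Bcl2l2 -0.117 to 0.06, Mcl1 -0.09 to 0.039 and Bad -0.012 to 0.19; for Fancg loss, Bcl2l11 -0.056 to 0.091, Bid -0.022 to 0.125 and Bad -0.145 to 0.058; for the transgene, Bcl2 -0.019 to 0.092, Bcl2l1 -0.204 to 0.018, Bcl2l2 -0.036 to 0.141, Bcl2l11 -0.06 to 0.087 and Bid -0.145 to 0.002; and for Bid in FancgKO cells -0.07 to 0.48. The cause was not tested. Under the block, all-gene calls numbered 869 for poly(I:C) in WT against 2 without it, 136 in FancgKO_Mdm4Tg and 612 in Mdm4Tg against 0 each, and 14 for Fancg loss against 2; FancgKO_Mdm4Tg and Mdm4Tg share only 2 numbers between treatments. Depth limits Bik and Bmf.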
